A study of Mus musculus with 6 samples.

Results

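Potassium channel genes were taken as all probe sets whose gene symbol begins with Kcn, which gave 90 genes with 1 probe set each among 22206 transcript probe sets (19505 genes with a symbol). The rule used symbols alone and no measured value. The RNA, labelled colon crypt after the epithelial glands of the large bowel, came from C57BL/6J mice of unstated age and was hybridised to 6 arrays, 1 sample each. A group of 3 arrays, titled PBS, came from control mice. The remaining 3 arrays followed 7 days of daily oral gavage with 100 µl of MBELN, which are nanoparticles of mulberry bark resembling exosomes. Arrays carry the group and number of their titles, and the labels do not tie each to its own mouse. The p-values therefore cover only how these samples vary, which may be technical. Values are log2 units on the scale inferred from the deposited table, and precision is limited by how few arrays there are.

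Potassium channels let potassium ions leave or enter cells down their gradient and so set the membrane voltage. The pore-forming families are the voltage-gated channels (Kcna to Kcnd, Kcnh and Kcnq), the inward rectifiers (Kcnj), the leak channels with a pair of pore domains (Kcnk) and the calcium- or sodium-activated channels (Kcnma, Kcnn and Kcnt). Other Kcn genes encode auxiliary subunits (Kcnab, Kcne, Kcnip and Kcnmb) or subunits that are silent on their own (Kcnf, Kcng, Kcns and Kcnv). In crypt cells, channels of the basolateral membrane keep the voltage that drives chloride secretion. In heart muscle they repolarise the action potential, and in neurons they shape firing.

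The tissue label was set against marker genes. Gut epithelial markers (12 measured) had medians of 19.35, 18.04 and 19.28 in PBS 1, 2 and 3 and of 7.13, 3.19 and 6.28 in MBELN 1, 2 and 3. Epcam, an epithelial adhesion molecule, read 19.40, 18.97 and 19.41 in PBS and 7.12, 2.47 and 7.54 in MBELN. Cardiomyocyte markers (10 measured) had medians of 18.43 in MBELN 1 and 18.76 in MBELN 3, against 3.72 to 4.03 in the other 4 arrays. Neuronal markers (10 measured) had a median of 14.95 in MBELN 2, against 3.02 to 3.90 elsewhere, and 7 glial markers had 7.64 there, against 3.01 to 3.29. In PBS 1 and PBS 3 the 7 Paneth cell markers of small intestine stood at 19.45 and 19.76, and in PBS 2 they stood at 3.82, where 6 colon epithelial markers had a median of 16.84. Small intestinal enterocyte markers (9 measured) had medians of 19.82, 5.28 and 19.53 in PBS and of 10.76, 3.53 and 8.89 in MBELN. MBELN 1 and MBELN 3 thus carried heart markers (heart-marked below), and enterocyte markers at a lower level than PBS 1 and PBS 3. MBELN 2 carried neuronal and glial markers (brain-marked), PBS 1 and PBS 3 small intestinal markers and PBS 2 colon markers. The label is the same for all 6. The treatment and the tissue of origin cannot be told apart in any comparison of the groups, and each channel is given array by array. A lower share of a cell type and less RNA per cell cannot be told apart either.

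A probe set was taken as above background where it passed the 95th percentile of that array's 1414 probe sets for olfactory or vomeronasal receptors, a level (dim level) between 3.99 in PBS 3 and 4.44 in MBELN 3. Of the 90 channel genes, 22, 17 and 21 lay above it in PBS 1, 2 and 3. In MBELN 1, 2 and 3 the numbers were 20, 63 and 22. The brain-marked MBELN 2 held 70.0% of the family above background, beside 55.2% of all transcript probe sets on that array. On the other arrays the family's share was 18.9% to 24.4%, beside 50.3% to 55.0% of all probe sets. In 32 genes (35.6%) MBELN 2 was the single array above the level, which was so for 5.93% of all probe sets. MBELN 2 exceeded every other array by over 2 log2 units in 39 genes (43.3%), beside 8.97% of all probe sets. A further 20 genes (22.2%) lay below the level in all 6 arrays, beside 28.8% of all probe sets.

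**Figure D1:**
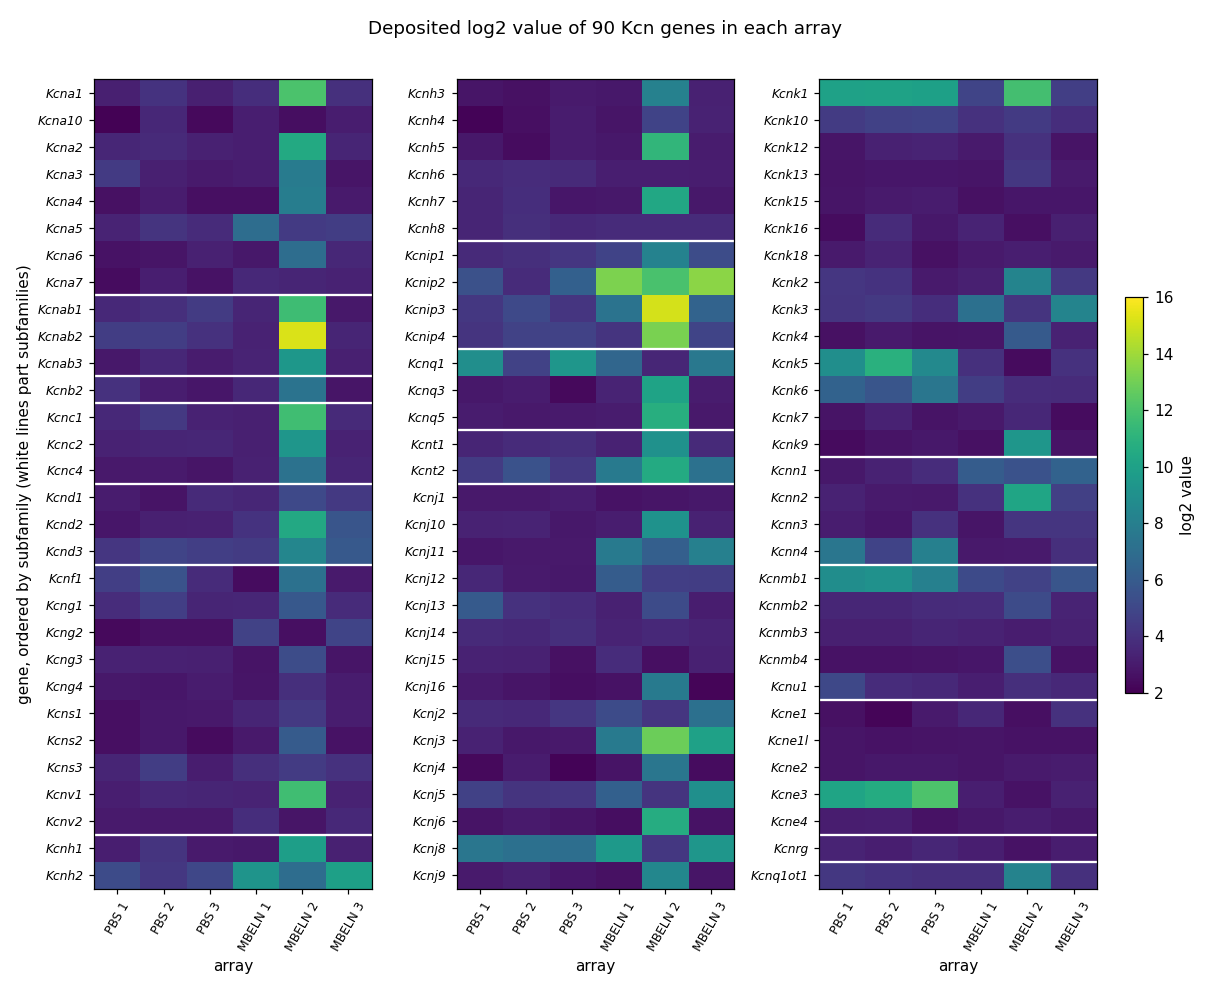
Log2 value of each of the 90 Kcn genes (rows, ordered by subfamily, in 3 panels) in each of the 6 arrays (columns), with colour from 2 to 16 log2 units. MBELN 2 is the bright column in Kcna, Kcnab, Kcnc, Kcnh and Kcnq, and Kcne3 and Kcnk5 are bright in the PBS arrays alone.

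The 5 promoters that follow belong to genes with unlike patterns over the arrays. Kcne3 and Kcnk5 stood high in the gut-marked PBS arrays, Kcnip2 and Kcnh2 in all MBELN arrays with the heart-marked ones highest, and Kcnab2 in the brain-marked array. Each is a RefSeq window of 300 bases, mostly upstream of an annotated start (GRCm38.p6), printed 5′ to 3′ on the gene's strand, and where a gene has several starts the most upstream is shown. Kcne3 has 2 starts in the table and Kcnab2 has 3, and which of them the RNA used was not measured. Capitals mark matches, on either strand, to any of 3 motifs. The GC box was searched as GGGCGG, which the factor Sp1 is known to bind. The TATA box, bound by the general transcription machinery, was searched as TATAAA. The left arm of the site of REST, a repressor of neuronal genes outside neurons, was searched as CAGCACC. The windows lie at chr7:100176420-100176719 (plus strand), chr14:20181733-20182032 (minus), chr19:45816014-45816313 (minus), chr5:24329542-24329841 (minus) and chr4:152477500-152477799 (minus), in that order.
Kcne3: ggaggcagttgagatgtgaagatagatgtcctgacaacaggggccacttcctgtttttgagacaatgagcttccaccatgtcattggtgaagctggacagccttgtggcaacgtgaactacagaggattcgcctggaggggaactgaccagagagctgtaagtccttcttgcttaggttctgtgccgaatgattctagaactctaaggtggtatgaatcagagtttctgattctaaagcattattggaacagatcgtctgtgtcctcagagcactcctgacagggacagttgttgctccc
Kcnk5: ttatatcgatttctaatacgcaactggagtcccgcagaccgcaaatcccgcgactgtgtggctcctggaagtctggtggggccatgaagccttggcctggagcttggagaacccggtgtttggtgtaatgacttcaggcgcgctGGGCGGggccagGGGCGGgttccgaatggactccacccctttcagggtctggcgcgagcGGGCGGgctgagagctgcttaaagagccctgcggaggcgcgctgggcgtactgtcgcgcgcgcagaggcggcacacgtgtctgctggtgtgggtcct
Kcnip2: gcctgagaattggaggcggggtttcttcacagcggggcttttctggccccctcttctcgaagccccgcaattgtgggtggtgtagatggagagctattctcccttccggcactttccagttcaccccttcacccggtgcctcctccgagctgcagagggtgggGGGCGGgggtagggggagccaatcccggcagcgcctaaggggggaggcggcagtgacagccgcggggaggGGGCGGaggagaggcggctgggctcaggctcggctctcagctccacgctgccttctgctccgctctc
Kcnh2: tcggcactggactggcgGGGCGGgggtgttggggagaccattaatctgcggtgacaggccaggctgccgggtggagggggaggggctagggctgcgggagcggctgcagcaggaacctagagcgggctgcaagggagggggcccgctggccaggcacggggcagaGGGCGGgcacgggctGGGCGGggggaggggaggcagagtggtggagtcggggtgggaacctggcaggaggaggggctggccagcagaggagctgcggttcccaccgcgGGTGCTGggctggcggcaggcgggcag
Kcnab2: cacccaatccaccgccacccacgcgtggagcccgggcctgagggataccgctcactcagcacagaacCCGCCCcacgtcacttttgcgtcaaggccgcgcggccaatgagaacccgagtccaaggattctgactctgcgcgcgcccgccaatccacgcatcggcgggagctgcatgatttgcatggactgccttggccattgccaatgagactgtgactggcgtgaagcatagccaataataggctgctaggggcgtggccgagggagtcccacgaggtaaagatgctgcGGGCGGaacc

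The Kcne3 window held none of the 3 motifs and was 48.3% G and C. Those of Kcnk5, Kcnip2, Kcnh2 and Kcnab2 held 3, 2, 3 and 2 GC boxes and were 63.7%, 67.0%, 74.3% and 62.7% G and C, and that of Kcnh2 also held 1 REST left arm. RefSeq windows were found for 69 of the 90 genes, 94 windows in all. A GC box lay in 44 of the 94 (46.8%), beside 35.7% of 32851 windows of all genes. A TATA box lay in 5 (5.32%, beside 13.6%) and a REST left arm in 10 (10.6%, beside 7.14%). Of genes with a window, the REST left arm lay in 4 of 26 on the neuronal and glial list, 2 of 11 on the cardiac list and 0 of 9 on the epithelial list. A match is a run of letters and no measurement of binding.

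Genes are not independent replicates, and as a description over all 90 of them Pearson's r between arrays was 0.94 for PBS 1 with PBS 3 and 0.94 for MBELN 1 with MBELN 3. PBS 2 had r = 0.88 and 0.85 with the other PBS arrays. MBELN 2 had r = 0.15 and 0.16 with MBELN 1 and MBELN 3 and between -0.07 and 0.00 with the PBS arrays. These values describe the arrays, which share a platform and the many dim probe sets of the family.

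**Figure D2:**
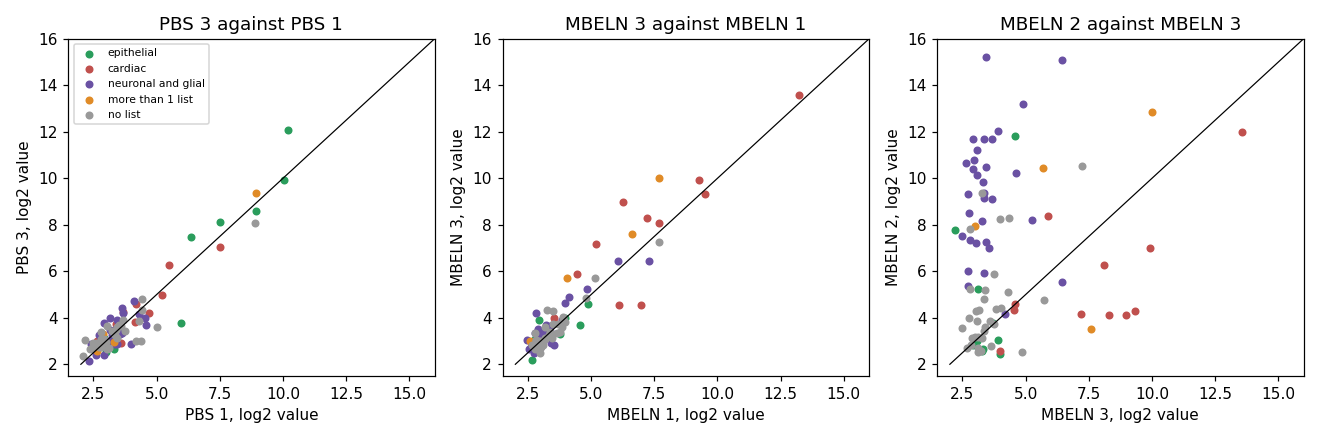
Log2 values of the 90 Kcn genes, 1 point a gene, in 3 pairs of arrays, with colours for the epithelial, cardiac, and neuronal and glial lists and a line of equal values. Points follow the line for PBS 3 against PBS 1 and MBELN 3 against MBELN 1 (r = 0.94 in both), and most neuronal and glial points lie far above it for MBELN 2 against MBELN 3 (r = 0.16).

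MBELN was compared with PBS to find genes that differ in the labelled crypts after the treatment. Of the 90 channel genes, 4 rose (Kcnip2, Kcnj3, Kcnj11 and Kcnn1) and 3 fell (Kcne3, Kcnk5 and Kcnmb1) in the arrays labelled MBELN, with limma and Benjamini-Hochberg adjustment at 0.05 over all probe sets. The rises were 4.44% of the family, beside 1.42% of all 22206 probe sets, and the falls were 3.33%, beside 3.76%. A further 5 genes had an unadjusted limma p under 0.05 (Kcnh2, Kcnk6, Kcnt2, Kcnn4 and Kcnj12). In all, 12 of the 90 genes had such a p, beside 3953 of the 22206 probe sets, so the family was not rich in them. The 3 MBELN values lay above all 3 PBS values in 16 genes (17.8%, beside 11.9% of all probe sets) and below them in 9 (10.0%, beside 13.4%). Of these, 1 of the 16 and 3 of the 9 lay below the dim level on every array. The median difference of the family was 1.24, or 0.84 with values below the dim level raised to it, beside 0.09 and 0.14 over all probe sets. This median includes the brain-marked MBELN 2, the highest array for 51 of the 90 genes, beside 5453 of the 22206 probe sets. It is thus no measure of a rise shared by the MBELN arrays.

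**Figure D3:**
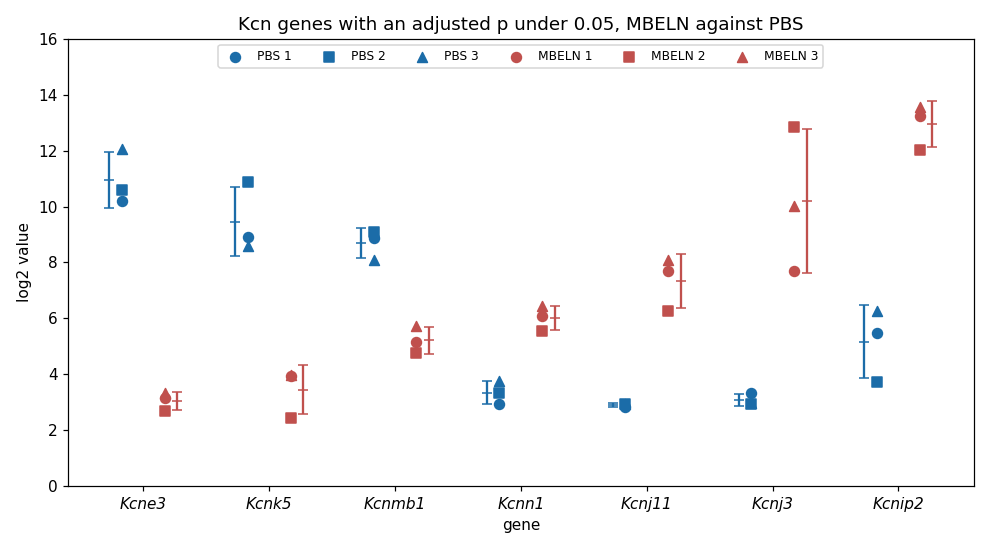
Log2 value of the 7 Kcn genes with an adjusted p under 0.05 in each array (blue, PBS; red, MBELN; circle, square and triangle, replicates 1, 2 and 3), with the group mean ± SD beside the points (n = 3). The groups do not overlap in any of the 7, and Kcnj3 shows the widest spread within MBELN, from 7.69 to 12.84.

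Among channels of epithelia, Kcne3 encodes the subunit that holds the Kcnq1 channel open in the basolateral membrane of crypt cells. Kcne3 read 10.19, 10.59 and 12.07 in the PBS arrays, numbered 1 to 3 here as in every such series of values, and 3.16, 2.67 and 3.31 in the MBELN arrays. All 3 PBS arrays were high, the MBELN arrays were below the dim level, and the groups were far apart. Kcne3 fell, with an adjusted p of 0.00229 by limma, and was at least 99.9-fold lower against the dim level. This is a bound, from the mean of the PBS arrays to the mean dim level of the MBELN arrays, as for each such fall here. For a rise the bound runs from the mean dim level of the PBS arrays to the mean of the MBELN arrays. Each uses the arrays of its own fit.

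Kcnk5 encodes TASK-2, a leak channel of transporting epithelia. Its values were 8.91, 10.87 and 8.59 in PBS and 3.95, 2.43 and 3.97 in MBELN, where it was below the dim level on every array. Kcnk5 fell (limma, adjusted p = 0.0138) and was at least 35.5-fold lower, with PBS 2 the highest of the PBS arrays. It no longer passed with PBS 1 (adjusted p = 0.0647), PBS 3 (0.0530), MBELN 1 (0.058) or MBELN 3 (0.0592) left out.

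Kcnn4 encodes the intermediate-conductance calcium-activated channel that serves secretion triggered by calcium. Kcnn4 read 7.49, 4.84 and 8.11 across PBS and 2.94, 3.03 and 3.90 in MBELN, so the groups did not overlap, yet the test was not passed (limma, adjusted p = 0.110). PBS 2 was the low PBS array for this gene. Kcnq1, the pore partner of Kcne3 and also of the cardiac subunit Kcne1, showed the same split within PBS, with 8.92, 4.79 and 9.37. In MBELN it read 6.62, 3.50 and 7.60, so that the heart-marked arrays lay between the PBS values and the groups overlapped (adjusted p = 0.623). Kcnq1 and the non-coding Kcnq1ot1 overlap in the genome, and the strand that each probe set reads is not given in the sources used here. Kcnq1ot1 read 8.27 in MBELN 2 and at most 4.29 elsewhere, while Kcnq1 was at its lowest in MBELN 2.

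Kcnk1, which encodes TWIK-1, stood at 10.03, 10.04 and 9.94 in PBS and at 4.88, 11.80 and 4.59 in MBELN. The PBS arrays were level, the heart-marked arrays were low and the brain-marked array was the highest of all, so the groups overlapped (limma, adjusted p = 0.524). Kcnk6, which encodes the related TWIK-2, read 6.38, 5.68 and 7.47 in PBS and 4.56, 3.79 and 3.71 in MBELN, without overlap (adjusted p = 0.0690). The inward rectifier Kcnj13 was above the dim level in PBS 1 (5.98) and MBELN 2 (5.22) alone. Kcnj16, which encodes Kir5.1, was above it in MBELN 2 alone, at 7.80, although it had been listed as epithelial. Kcne2, Kcnj1 and Kcnj15, the remaining listed genes, were below it on every array.

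Of 11 measured genes on the epithelial list, 2 fell (beside 3.76% of all probe sets), 0 rose and 9 did not pass. The groups did not overlap in 5, all lower in MBELN (beside 13.4%), and 1 of the 5, Kcnj1, was below the dim level on every array. The list median was 6.38, 4.79 and 7.47 across PBS and 3.28, 3.03 and 3.31 in MBELN. Its median difference was -1.79 (-1.59 with dim values raised to the level), beside 0.09 over all probe sets. Leaving out PBS 1, 2 or 3 moved it to -1.18, -2.90 or -1.12. Beside these genes, gut epithelial markers above the dim level numbered 12, 11 and 12 of 12 in PBS and 10, 2 and 11 in MBELN. The log2 of their summed linear level was 22.13 to 22.57 in PBS and 7.22 to 11.16 in MBELN. Cdh1, the epithelial cadherin, read 4.34, 3.35 and 4.89 in MBELN 1, 2 and 3, below the dim level in MBELN 1 and MBELN 2 and above it in MBELN 3. The part of these cells in the result was not tested.

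**Figure D4:**
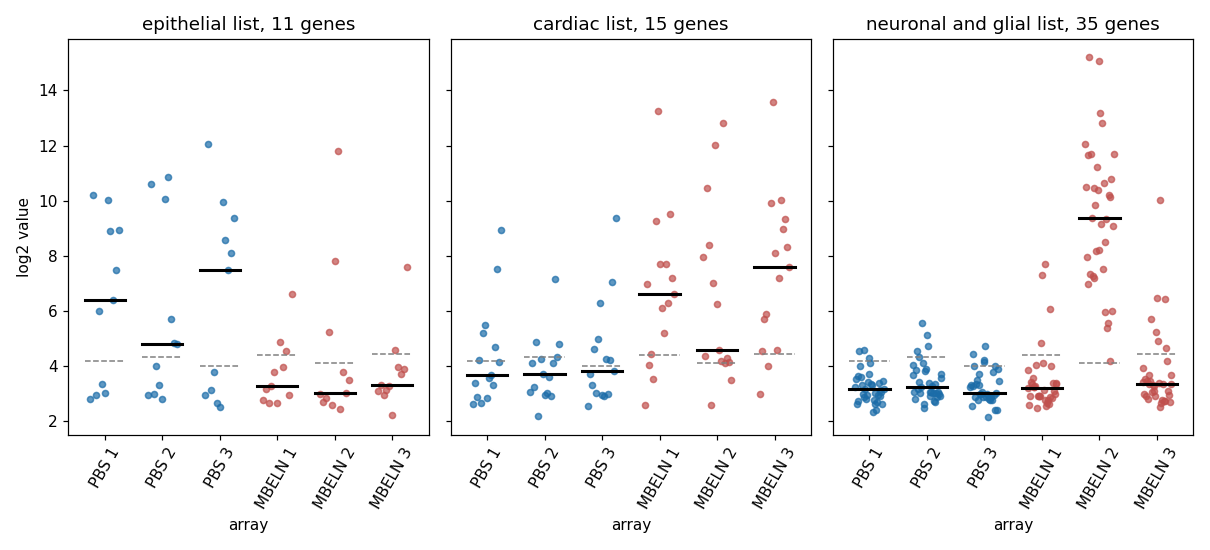
Log2 values by array of the Kcn genes on the epithelial (11 genes), cardiac (15) and neuronal and glial (35) lists, 1 point a gene, with the list median as a black bar and the dim level as a dashed line. The median of the first list stands highest in the PBS arrays, that of the second in MBELN 1 and MBELN 3, and that of the third in MBELN 2, at 9.36.

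Cardiac channels began with Kcnip2, which encodes KChIP2, the calcium-binding subunit of the Kv4 channels that carry the transient outward current of ventricular muscle. Kcnip2 read 5.48, 3.72 and 6.27 across PBS and 13.24, 12.01 and 13.57 across MBELN. Every MBELN array was high, the brain-marked one included. Kcnip2 rose, with a log2 difference of 7.78 ± 0.78 (SE, n = 3) and an adjusted p of 0.00649 by limma. The Kv4 pores themselves read otherwise: Kcnd2 was 4.04, 10.44 and 5.71 in MBELN 1, 2 and 3 and at most 3.29 in PBS, and Kcnd3 was 4.44, 8.40 and 5.89 against 4.20, 4.88 and 4.60. Neither passed (adjusted p = 0.332 and 0.468).

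Kcnj11 encodes Kir6.2, the pore of the ATP-sensitive channel that opens when cell energy falls. It read 2.83, 2.94 and 2.93 in PBS, below the dim level, and 7.69, 6.25 and 8.09 in MBELN. Kcnj11 rose (limma, adjusted p = 0.0106) by at least 9.05-fold, and no longer passed with PBS 1 (adjusted p = 0.0666), PBS 3 (0.0636) or MBELN 1 (0.0563) left out. Kcnj8 encodes the vascular pore of this channel family, Kir6.1. Its values were 7.51, 7.16 and 7.05 in PBS and 9.51, 4.29 and 9.34 in MBELN, so the heart-marked arrays were highest, the brain-marked array was lowest, and the groups overlapped (adjusted p = 0.895). Endothelial markers (6 measured) had medians of 12.29, 4.96 and 11.98 in MBELN and of 3.61 to 5.70 in PBS, and their part in the Kcnj8 values was not tested.

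Kcnj3 and Kcnj5 encode the GIRK1 and GIRK4 subunits of the atrial channel that acetylcholine opens to slow the heart, and GIRK1 is also a neuronal subunit. Kcnj3 read 3.32, 2.92 and 2.96 in PBS and 7.69, 12.84 and 10.02 in MBELN. All MBELN arrays were above all PBS arrays, with the brain-marked one highest. Kcnj3 rose (limma, adjusted p = 0.0387), to a mean level at least 64.6-fold higher. This bound is for the mean, which includes MBELN 2, and not for each array. With PBS 2 and MBELN 2 both left out it was 27.2-fold. Kcnj3 no longer passed with PBS 1 (adjusted p = 0.156), PBS 2 (0.0841), PBS 3 (0.161) or MBELN 3 (0.139) left out. Kcnj5 read 4.68, 4.10 and 4.20 in PBS and 6.28, 4.11 and 8.98 in MBELN, high in the heart-marked arrays alone (adjusted p = 0.443).

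Kcnh2 encodes the ERG channel of the rapid delayed rectifier current. It read 5.21, 4.25 and 4.97 in PBS and 9.26, 7.00 and 9.93 in MBELN, without overlap, and missed the threshold (limma, adjusted p = 0.0603). Kcnj2 and Kcnj12 encode the Kir2 channels that hold the resting voltage of muscle. Kcnj2 read 5.19, 4.18 and 7.17 in MBELN and at most 4.23 in PBS, and Kcnj12 read 6.09, 4.59 and 4.57 against at most 3.57 (adjusted p = 0.348 and 0.119). Kcnk3, which encodes TASK-1, read 7.19, 4.13 and 8.31 in MBELN and at most 4.32 in PBS, with all PBS arrays below the dim level (adjusted p = 0.320). Kcna5, which encodes the Kv1.5 channel, reached 6.98 in MBELN 1 and 4.35 and 4.55 in the other MBELN arrays, against at most 4.10 in PBS (adjusted p = 0.370). These genes split the MBELN arrays, and in each but Kcnj12 both heart-marked arrays read above MBELN 2. Kcne1, the minK subunit, was below the dim level on all arrays, and Kcna4 was above it in MBELN 2 alone, at 7.95.

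Of 15 measured genes on the cardiac list, 3 rose (beside 1.42% of all probe sets), 0 fell and 12 did not pass, and 7 had MBELN values above all PBS values (beside 11.9%). The list median was 3.65, 3.72 and 3.81 in PBS and 6.62, 4.59 and 7.60 in MBELN 1, 2 and 3. Genes above the dim level numbered 6, 3 and 7 in PBS and 12, 13 and 13 in MBELN. Its median difference was 1.92 (1.69 with dim values raised). Cardiomyocyte markers above the dim level numbered 4, 4 and 5 of 10 in PBS and 10, 2 and 10 in MBELN, with log2 summed levels of 8.53 to 11.26 in PBS and 7.32 to 22.11 in MBELN. Mybpc3, a myosin-binding protein of heart, read 3.32, 2.83 and 3.24 in PBS and 15.38, 2.69 and 15.52 in MBELN. In MBELN 2, Kcnip2, Kcnj3, Kcnj11 and Kcnh2 were thus high while most heart markers were at background.

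Neuronal and glial channels were nearly all read from MBELN 2. Of 35 measured genes on the list, all 35 were above the dim level there, with a lowest value of 4.17, a median of 9.36 and a highest value of 15.22. On the other arrays 3 to 7 of the 35 were above it and list medians were 3.02 to 3.34. MBELN 2 was the highest array for 33 of the 35, the exceptions being Kcnn1 and Kcnn3. On the list 2 genes rose (Kcnj3 and Kcnn1, both above the dim level in all 3 MBELN arrays; beside 1.42% of all probe sets), 0 fell and 33 did not pass. The list's median difference was 2.03 (1.89 with dim values raised), 0.05 without MBELN 2 and 3.14 without MBELN 1. Neuronal markers above the dim level numbered 10 of 10 in MBELN 2, 4 to 5 in PBS and 2 in MBELN 1 and MBELN 3, with log2 summed levels of 8.68 to 8.96 in PBS and 8.97 to 21.28 in MBELN. Nefl, a neurofilament subunit, read 14.34 in MBELN 2 and at most 3.11 elsewhere.

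Shaker channels (Kcna) repolarise axons. Kcna1 read 12.05 in MBELN 2 and at most 4.04 on the other arrays, and Kcna2 read 10.48 against at most 3.65. Kcna6 read 6.98 against at most 3.54, and Kcna3, known also from T cells, read 7.84 in MBELN 2 and 4.37 in PBS 1. The Kcna genes of axons were thus at or below background outside the brain-marked array. Kcnab1, Kcnab2 and Kcnab3 encode their cytoplasmic beta subunits, and read 11.67, 15.22 and 9.39 in MBELN 2 against at most 4.43, 4.55 and 3.54 on other arrays. Kcnab2 was above the dim level in all 3 PBS arrays, at 4.52, 4.55 and 4.0, and below it in MBELN 1 and MBELN 3.

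Kcnc channels let fast-spiking neurons fire at high rates, and Kcnb and Kcnd channels act in cell bodies and dendrites. Kcnc1, Kcnc2 and Kcnc4 read 11.69, 9.36 and 7.27 in MBELN 2 and at most 4.31, 3.49 and 3.44 elsewhere. Kcnb2 read 7.34 against at most 3.99. Of the silent subunits, which alter Kcnb channels, Kcnv1 read 11.69 in MBELN 2 against at most 3.57, Kcns2 read 6.00 against at most 2.97, and Kcnf1 read 7.20 against at most 5.57, its value in PBS 2. Kcng2 stood apart from these, at 4.79 and 4.86 in MBELN 1 and MBELN 3 and at most 2.65 on the other arrays.

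The Kcnh family of ether-à-go-go channels showed both patterns. Kcnh1, Kcnh3, Kcnh5 and Kcnh7 read 9.82, 8.18, 11.21 and 10.39 in MBELN 2 and at most 4.11, 3.26, 3.09 and 3.82 elsewhere. Kcnh2 was instead highest in MBELN 3 (9.93), and Kcnh6 and Kcnh8 were below the dim level throughout. Kcnq3 and Kcnq5 carry the M current, which damps repeated firing, and read 10.15 and 10.80 in MBELN 2 against at most 3.39 and 3.07. Within that family Kcnq1 was lowest in MBELN 2, at 3.50.

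The remaining Kcnip genes encode neuronal partners of Kv4. Kcnip1 read 4.84, 8.20 and 5.24 in MBELN and at most 4.22 in PBS, and Kcnip4 read 13.19 in MBELN 2 and at most 4.90 elsewhere. Kcnip3, which encodes calsenilin, read 4.29, 5.11 and 4.15 in PBS and 7.31, 15.08 and 6.45 in MBELN. All MBELN values of Kcnip1 and Kcnip3 were above all PBS values, yet neither passed (limma, adjusted p = 0.308 and 0.335).

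Among neuronal and glial inward rectifiers, Kcnj6, Kcnj9 and Kcnj4 read 10.65, 8.50 and 7.51 in MBELN 2 and at most 3.04, 3.26 and 3.05 elsewhere. Kcnj6 and Kcnj9 encode neuronal GIRK subunits. Kcnj10, which encodes Kir4.1, the channel with which glia clear potassium, read 9.14 against at most 3.37. Of the leak channels, Kcnk9 and Kcnk4 read 9.34 and 5.94 in MBELN 2 against at most 2.88 and 3.34, and Kcnk2, the mechanosensitive TREK-1, read 8.30 against at most 4.35.

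Kcnn1 encodes the small-conductance channel SK1, which calcium opens after a spike. Kcnn1 read 2.92, 3.33 and 3.77 in PBS, below the dim level, and 6.07, 5.54 and 6.42 in MBELN, at least 3.59-fold higher (limma, adjusted p = 0.0185). The MBELN arrays were close to each other here, whichever tissue their markers pointed to. It no longer passed with PBS 1 (adjusted p = 0.0949), PBS 3 (0.0618), MBELN 1 (0.0847) or MBELN 3 (0.0792) left out. Kcnn2, the SK2 channel, differed more between arrays, with 3.98, 10.21 and 4.63 in MBELN and at most 3.37 in PBS (adjusted p = 0.408), and Kcnn3 stayed between 2.82 and 4.19. Kcnt1 and Kcnt2 encode sodium-activated channels. Kcnt1 read 9.09 in MBELN 2 and at most 3.89 elsewhere. Kcnt2 read 4.41, 5.50 and 4.32 in PBS and 7.69, 10.55 and 7.25 in MBELN, without overlap (adjusted p = 0.106).

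Kcnmb1 encodes the beta subunit that tunes the calcium-activated BK channel in smooth muscle. Kcnmb1 read 8.88, 9.10 and 8.09 in PBS and 5.15, 4.76 and 5.71 in MBELN, above the dim level on every array. By limma the fall was 3.48 on the log2 scale, that is -3.48 ± 0.42 (SE, n = 3), with an adjusted p of 0.0112. Leaving out PBS 1 raised this p to 0.0719, and leaving out MBELN 1 raised it to 0.0591, which ends the call. Smooth muscle markers (6 measured) had medians of 15.55, 17.90 and 15.54 in PBS and of 10.79, 3.65 and 10.39 in MBELN, and their log2 summed levels were 18.93 to 21.13 and 6.94 to 17.32. Their part in the fall was not tested. The RefSeq bounds of Kcnmb1 and Kcnip1 overlap, the strand read by each probe set is not stated, and Kcnip1 read above its PBS values on every MBELN array. Kcnmb2 and Kcnmb4, the latter a brain subunit, were above the dim level in MBELN 2 alone, at 5.20 and 5.36, and Kcnmb3 was below it throughout. Of the 5 Kcne genes, 4 were also below it on every array, as was Kcnrg, a regulator gene, at 2.69 to 3.48.

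Of 10 adjacent pairs within the family, 6 had both genes above the dim level on at least 1 array, and 3 of the 6 shared their highest array. Kcnj16 and Kcnj2 are adjacent protein-coding genes in RefSeq, and Kcnj16 was above the dim level in MBELN 2 alone (7.80) while Kcnj2 read highest in MBELN 3 (7.17) and 4.18 in MBELN 2. Kcna5 adjoins Kcna1, which adjoins Kcna6, and Kcna5 was highest in MBELN 1 (6.98) while the other two were highest in MBELN 2. Kcnk16 adjoins Kcnk5 and was below the dim level on all arrays. Kcna2 and Kcna3, Kcna1 and Kcna6, and Kcnj9 and Kcnj10 shared their highest array, MBELN 2. That array was the highest for 51 of all 90 genes, adjacent or not, so these pairs show nothing particular to neighbours. Kcnj11 and Kcnj8 each adjoin the gene of a sulfonylurea receptor, the regulatory subunit of the ATP-sensitive channel. Abcc9, beside Kcnj8, read 6.59, 6.13 and 7.63 in PBS and 10.24, 5.78 and 11.32 in MBELN, high in the same arrays as its neighbour. Abcc8, beside Kcnj11, read 4.72, 6.98 and 4.79 in MBELN and at most 4.30 in PBS, highest in MBELN 2 where Kcnj11 was lowest of the 3 (6.25).

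Among 19 measured genes listed as channel partners, 0 rose, 1 fell and 18 did not pass, with a median difference of 1.43. Most of them regulate or anchor these channels, while Hcn2, Hcn3 and Hcn4 on the list encode channels of another family. A count of 1 in 19 is near the 3.76% of all probe sets that fell. The gene that fell was Lrrc26, which encodes the subunit that opens BK channels of secretory epithelial cells at rest. Lrrc26 read 10.05, 10.84 and 10.81 in PBS and 2.34, 2.46 and 2.51 in MBELN, at least 76.4-fold lower (limma, adjusted p = 0.000699). The 6 partners with the widest range over the arrays were Dlg4, Dlg2, Lgi1, Dpp6, Lrrc26 and Dpp10. Dlg4, the synaptic scaffold PSD-95, read 18.95 in MBELN 2 and at most 6.69 elsewhere, and Dlg2, a related scaffold, read 13.49 against at most 3.79. Dpp6 and Dpp10 encode Kv4 subunits and read 12.34 and 10.62 in MBELN 2 against at most 3.85 and 5.40, and Lgi1, a secreted partner of Kv1 channels, read 13.40 against at most 5.50. All of these but Lrrc26 were highest in the brain-marked array.

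With PBS 2 and MBELN 2 both left out, which sets the heart-marked MBELN 1 and MBELN 3 against PBS 1 and PBS 3 with small intestinal markers, 13 channel genes were higher and 8 lower (limma, adjusted p under 0.05). These were 14.4% and 8.89% of the family, beside 15.1% and 15.4% of all probe sets. The 7 calls above were among them. The genes that joined the higher side were Kcng2, Kcnh2, Kcnip3, Kcnj2, Kcnj5, Kcnj8, Kcnj12, Kcnk3 and Kcnt2, of which 6 are on the cardiac list. Kcnh2 differed by 4.50 ± 0.37 (log2, SE, 2 arrays a group; limma, adjusted p = 0.000122) and Kcnk3, below the dim level in both PBS arrays, was at least 12.6-fold higher (adjusted p = 0.000716). On the lower side joined Kcnf1, Kcnk1, Kcnk6, Kcnn4 and Kcnq1. Kcnk1 differed by -5.25 ± 0.32 (adjusted p = 3.64e-05) and Kcnq1 by -2.04 ± 0.43 (adjusted p = 0.0106). Kcnn4, below the dim level in both MBELN arrays, was at least 10.5-fold lower (adjusted p = 0.000331). None of the Kcna, Kcnab or Kcnc genes passed in this setting.

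The arrays also fall into a higher and a lower level of the hybridisation control probe sets, with means of 9.79 to 10.09 (PBS 2, MBELN 1, MBELN 3) and 8.43 to 8.98 (the other 3). With this level as a block, 4 channel genes were higher (beside 1.72% of all probe sets) and 3 lower (beside 4.48%), as in the fit without it. Within the higher level, which holds PBS 2 alone of its group, 12 of 90 were higher (13.3%, beside 9.59%) and 5 lower (5.56%, beside 9.21%). Within the lower level, which holds MBELN 2 alone of its group, 52 were higher (57.8%, beside 16.8%) and 7 lower (7.78%, beside 15.8%). Both fits take the spread of the lone array from its counterparts. Arrays that carried the same tissue markers lay at the same level.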

How the data were processed

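The authors deposited a table with a single value for each probe set on each array, as log2 values made by steps that no source states. The log2 scale was taken from the values themselves (minimum above 0, medians of 4.38 to 4.55, maximum of 19.93), since it is not stated either. The submitters' processing notes name Transcriptome Analysis Console 4.0. Per the labels' protocols, 90 ng of RNA was made into biotinylated cRNA, although a label also names a sequencing assay. How probe sets were summarized and normalized, and the build, is not given in the sources used here. Of 28846 probe sets, 6640 were array controls and were left out. MBELN and PBS (3 arrays each) were compared over the other 22206 with lmFit and eBayes of limma 3.58.1 (R 4.3.3), two-sided, with Benjamini-Hochberg adjustment and a threshold of 0.05, 4 residual and 1.66 prior degrees of freedom, and without covariates. Differences are MBELN minus PBS, and SE is the moderated one. The fit was tested on simulated data.

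Symbols came from the platform annotation (19572 probe sets with 1 symbol, 0 with several, 2634 with none), and all 90 Kcn symbols matched the RefSeq table of GRCm38.p6 with 0 changes. Some listed genes are not reported here. Members, lists and rules were chosen with earlier results of these data known. Values were given for genes past the threshold, for listed members above the dim level on at least 1 array, for the member with the highest value in each subfamily and for 6 partners. Kcng2, Kcnk2, Kcnt2, Kcnab3, Kcna3, Kcnmb2, Abcc8 and Abcc9 were added after their values were seen. The lists share 1 gene (epithelial and cardiac) and 3 genes (cardiac and neuronal). Figures were drawn with matplotlib 3.10.9.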

Additional observations from a re-analysis of the deposited data

How the results depend on the processing

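The number of arrays, with tissue markers that differ within both groups, limits every count. With quantile normalization, median centring, a trended robust variance or the control level as a block, all 7 calls were kept. With a filter on dim probe sets they were kept with 1 more, which made 30.8% of the 26 genes left, beside 11.1% of the probe sets left. The 7 calls (4 higher, 3 lower) became 18 (12 and 6) with array weights (20% of the family, beside 25.9% of all probe sets), 21 (13 and 8) without PBS 2 and MBELN 2 together (23.3%, beside 30.5%), 17 (12 and 5) and 59 (52 and 7) within the higher and lower hybridisation control level (18.9%, beside 18.8%, and 65.6%, beside 32.6%), and 2 (1 and 1) at a threshold of 0.01. For the threshold of 0.01 the share of all probe sets is not given here, so those 2 calls have no background beside them. Leaving out 1 array gave 2 to 16 calls (1 to 12 higher, 1 to 5 lower). There were 16 when MBELN 2 was dropped (17.8%, beside 16.8% of all probe sets) and 8 for PBS 2 (8.89%, beside 7.21%). There were 2 for PBS 1 (2.22%, beside 1.7%), 3 for PBS 3 (3.33%, beside 1.71%) or MBELN 1 (3.33%, beside 2.26%), and 4 for MBELN 3 (4.44%, beside 2.01%). Kcnip2 and Kcne3 passed in each of these fits. The 25 of 90 genes without overlap became 16 of the 26 genes left by the dim filter, a smaller count from a smaller set. They became 52 without both arrays numbered 2, and 26 to 42 when 1 array was left out, a count that grows as arrays are dropped. Over all probe sets the share without overlap was 11.9% higher and 13.4% lower with all 6 arrays, and it is not given here for the other settings. With the replicate block, 2 calls (1 higher, 1 lower) were left, 2.22% of the family beside 2.05% of all probe sets. Same-numbered arrays did not deviate together from their group means (r of -0.03, -0.07 and -0.06), and arrays of unlike number had r of -0.09 to 0.08. Tissue markers differ within both groups and enter these deviations. The check therefore cannot tell whether same-numbered arrays belong together, and the labels do not say. With the dim level at the 99th percentile, 13, 10 and 12 channel genes were above it in PBS and 13, 50 and 16 in MBELN. No channel gene reversed direction among the 7. Choosing the dimmer probe set of a gene gave no value, as each gene had 1.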
